A study of Homo sapiens with 36 samples.

Results

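The genes described are 10 cytokine and tumour necrosis factor (TNF) family ligand genes, TNF, LTA, LTB, TNFSF13B, TGFB1, IL6, IL10, EBI3, IL16 and IL32. They were chosen by name as secreted or membrane-bound signals that B cells are known to make, and are 10 of the 37549 genes with RNA-sequencing counts. The counts come from the leukaemic B-cell lines MEC1, JVM2 and EHEB. Each line was given the vehicle dimethyl sulphoxide (DMSO), 50 µM of fludarabine, a purine analogue that interferes with DNA synthesis, 5 µM of ibrutinib, an inhibitor of Bruton tyrosine kinase (BTK), or 10 µM of idelalisib, an inhibitor of phosphoinositide 3-kinase delta. There were 3 libraries per group and 12 per line. MEC1 cells were exposed for 48 h, JVM2 cells for 72 h and EHEB cells for 96 h, and an effect of the line therefore cannot be told apart from one of time. MEC1 carries mutated p53, whereas JVM2 and EHEB carry wild-type p53, and each is a single established line. In the labels, the ibrutinib and idelalisib libraries are numbered in a later series than the DMSO and fludarabine libraries, and no DMSO library lies in it, so this series and an effect of a kinase inhibitor cannot be told apart. Libraries are called 1, 2 and 3 within a group in the order of their labels, and values are listed in that order.

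B cells take part in immune responses not only through antibodies but also by releasing cytokines. TNF and lymphotoxin alpha, encoded by LTA, bind the TNF receptors TNFRSF1A and TNFRSF1B, while lymphotoxin beta, encoded by LTB, holds lymphotoxin alpha at the cell surface in a joint trimer that binds LTBR and shapes lymphoid tissue. TNFSF13B, also called BAFF, keeps B cells alive, TGFB1 and IL10 restrain immune cells, and IL6 acts through IL6R and IL6ST. Chronic lymphocytic leukaemia cells are known to receive such signals from their surroundings and to make some of them.

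Expression is given as CPM, the usual unit of counts relative to library sizes normalised by the trimmed mean of M-values (TMM) over all 36 libraries. Every log2 fold change, its standard error (SE) and adjusted p comes from edgeR's quasi-likelihood test, fitted to the 12 libraries of a line unless stated, with Benjamini-Hochberg adjustment over all genes tested. A gene was called changed when its adjusted p was under 0.05. The libraries held between 26590705 and 53538925 counts. The study's methods describe results other than the glucuronidation assays as coming from independent experiments, in a general statement that does not name the RNA-sequencing libraries. Whether the libraries of a group came from separate cultures is not stated for them specifically. The p values therefore measure the spread between these libraries, which may be technical. The B-cell markers MS4A1, CD79A, CD79B, PAX5 and CD22 were each at 1 CPM or more in every library. Of the T-cell markers CD3D and CD3G stayed under 1 CPM in every library, and CD3E and CD2 in every library of JVM2 only, with summed levels of the list of at most 3.55 CPM in MEC1 and 0.52 CPM in JVM2, whereas EHEB libraries held 3.45 to 15.7 CPM. The monocyte markers CD14, LYZ and FCGR1A were under 1 CPM throughout, LYZ and FCGR1A were at 0 in every EHEB library, and the summed list reached 5.88 CPM at most. The remaining monocyte marker, CSF1R, reached 1 CPM in some but not all libraries of MEC1 and of JVM2. The NK-cell list summed to between 2.41 and 25.6 CPM, with 2 of its 3 genes at 1 CPM or more in every EHEB library and 1 in every MEC1 library. The stromal list summed to 3.38 to 84.9 CPM, with COL3A1 under 1 CPM in every library and PDGFRB at 21.2 to 77.6 CPM in JVM2. COL1A1 was also at 1 CPM or more in every JVM2 library. The part of such genes in the results was not tested.

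Each drug changed some of these genes in each line. In JVM2 and EHEB fludarabine moved TNF, LTA and LTB in the opposite direction from the kinase inhibitors, although LTA with ibrutinib in JVM2 was not called. In MEC1 IL10 and EBI3 rose with all 3 drugs. LTA and TGFB1 had opposite calls there, each resting on a call that was lost under some alternatives. In MEC1, where IL6 had no counts, 9 of the 10 genes were tested. Fludarabine raised 6 and lowered 2 of them, beside 21.2% higher and 22.7% lower among the 17516 genes tested. Ibrutinib raised 4 and lowered 2 (23.7% and 23.9% of all genes), and idelalisib raised 4 and lowered 3 (27.6% and 27.4%). All 10 genes were tested in JVM2 and EHEB. In JVM2 fludarabine raised 4 and lowered 5 (23.9% and 23.3% of 17508 genes), ibrutinib raised 3 and lowered 3 (14.5% and 15%), and idelalisib raised 2 and lowered 5 (21.6% and 22.6%). In EHEB fludarabine raised 4 and lowered 3 (18.4% and 19.2% of 17748 genes), ibrutinib raised 1 and lowered 4 (8.5% and 11.2%), and idelalisib raised 1 and lowered 5 (15.1% and 18.2%). The median log2 fold change of the 10 genes lay between −0.29 (idelalisib in EHEB) and 0.36 (fludarabine in MEC1), beside medians of 0.01 and 0.06 over all genes in those comparisons. The 3 drugs of a line were set against the same DMSO libraries.

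**Figure D1:**
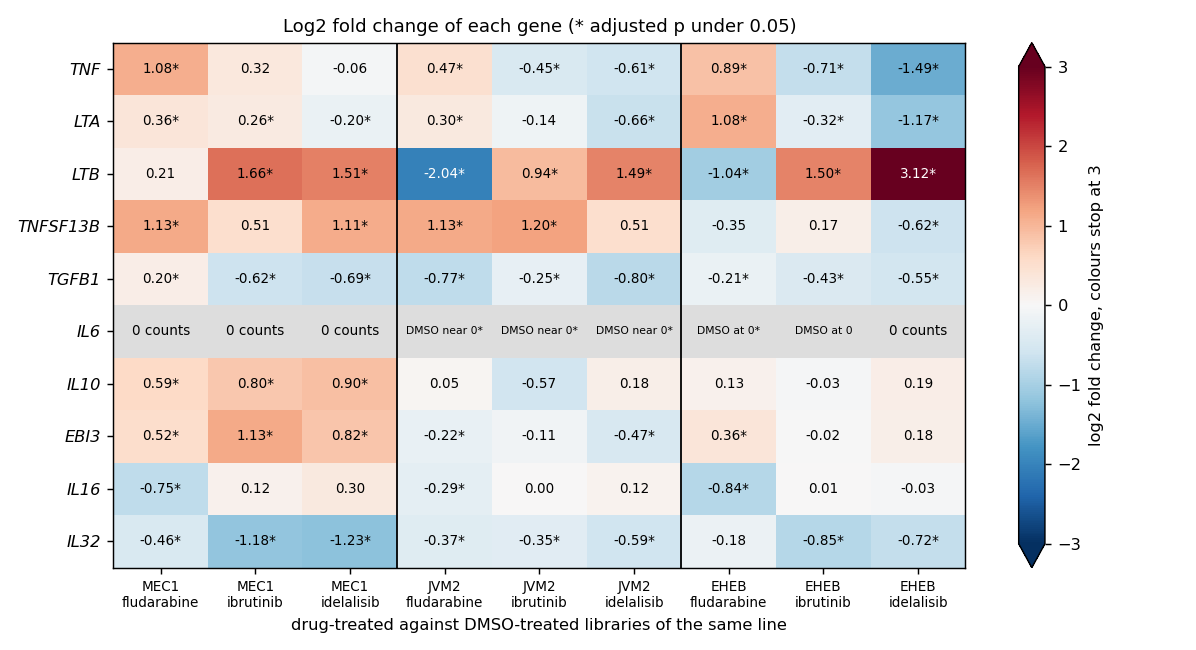
Each cell gives the log2 fold change of a gene (rows) in drug-treated against DMSO-treated libraries of a line (columns, n = 3 each), with an asterisk where the adjusted p was under 0.05 and blue to red for lower to higher. LTB was called higher in all 6 kinase inhibitor columns, IL32 and TGFB1 were called lower in 8 of 9 columns each, and IL6 is drawn in grey, because its DMSO libraries were at or near 0.

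How TMM sets the zero point matters for small fold changes. With scaling by library size alone, the median log2 fold change of all genes with fludarabine moved by 0.25 in MEC1, 0.20 in JVM2 and 0.11 in EHEB. The share of higher genes among those called then went from 48.4% to 74.1%, from 50.6% to 69.1% and from 48.9% to 61.8%. JVM2 went from 49.1% to 62.2% with ibrutinib and from 48.8% to 59.5% with idelalisib, and EHEB from 43.1% to 65.4% and from 45.3% to 59.6%. For idelalisib against ibrutinib in MEC1 the median moved by −0.17 and the share from 39.1% to 11.3%, and for DMSO-treated JVM2 and EHEB against MEC1 the median moved by −0.12 and −0.11. No called change of the 10 genes turned direction under this scaling or any other alternative. Calls that ended are given beside each gene.

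With DMSO, the lines differed in which of these genes they expressed most. Levels are compared between genes as CPM per kilobase of each gene's reference transcript. In MEC1 IL32 led with 197.8 ± 23.6 CPM per kilobase (SD, n = 3), followed by EBI3 (48.5 ± 2.99), TGFB1 (40.8 ± 1.09), LTA (32.0 ± 1.60), LTB (17.9 ± 5.26), IL16 (13.2 ± 2.91), TNF (9.40 ± 1.52), IL10 (7.82 ± 0.403) and TNFSF13B (3.08 ± 0.211). The neighbours LTB and IL16, IL16 and TNF, and TNF and IL10 lay within their SDs of each other. In JVM2 EBI3 led with 231.4 ± 8.61 CPM per kilobase, followed by TGFB1 (85.9 ± 2.07), IL32 (51.8 ± 2.87), LTA (46.4 ± 4.23), TNF (14.8 ± 0.831), IL16 (5.03 ± 0.227), LTB (2.497 ± 0.0341), TNFSF13B (1.31 ± 0.119) and IL10 (0.5001 ± 0.119). IL32 and LTA lay within their SDs. In EHEB IL32 (242.3 ± 48.6) and EBI3 (178.9 ± 2.98) stood above TGFB1 (79.4 ± 0.341), LTA (77.6 ± 7.29), TNF (29.03 ± 0.643), TNFSF13B (6.84 ± 0.492), IL16 (5.31 ± 0.248), LTB (2.43 ± 0.400) and IL10 (2.31 ± 0.209). TGFB1 and LTA, and LTB and IL10, lay within their SDs there. IL16 has several annotated starts, so its level per length depends on the transcript chosen.

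Tested gene by gene over the 9 DMSO libraries, 9 of 9 genes differed between JVM2 and MEC1, where 63.8% of all genes did. Between EHEB and MEC1 8 of 9 differed (67.4% of all genes), and between EHEB and JVM2 6 of 9 (59.6%). MEC1 stood out by LTB and IL10, at 16.0 and 12.7 CPM. LTB was lower in JVM2 by a log2 difference of −2.83 (SE 0.226, adjusted p = 5.05e-06) and in EHEB by −2.85 (SE 0.226, adjusted p = 4.17e-06). IL10 was lower by −3.95 (SE 0.191, adjusted p = 1.82e-07) and −1.73 (SE 0.167, adjusted p = 1.61e-05). IL16 was also highest in MEC1, at 127.3 CPM beside 48.5 in JVM2 and 51.1 in EHEB. EHEB held the most TNF, LTA and TNFSF13B, with 48.7, 109.8 and 17.6 CPM, whereas MEC1 held 15.8, 45.3 and 7.93 CPM and JVM2 24.8, 65.7 and 3.37 CPM. TGFB1 was lowest in MEC1, at 113.5 CPM beside 238.8 and 220.9, and the difference between EHEB and JVM2 did not pass the test (adjusted p = 0.0735). IL32 was lowest in JVM2, at 42.4 CPM beside 161.8 in MEC1 and 198.2 in EHEB.

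TNF, LTA and LTB are neighbours in the class III region of the major histocompatibility complex on chromosome 6. In the GENCODE annotation of GRCh38, LTA (ENSG00000226979.9) runs from 31572054 to 31574324 and TNF (ENSG00000232810.5) from 31575565 to 31578336 on the plus strand. LTB (ENSG00000227507.3) runs from 31580525 to 31582522 on the minus strand. LTA and TNF are 1240 bases apart, TNF and LTB 2188 bases, and all 3 genes fit into 10469 bases with 4 exons each. The promoters of these neighbours are shown because their RNA levels moved in different directions. The 250 bases before each RefSeq start, read on the strand of the gene (GRCh38.p14), are given with matches to the κB consensus, the sequence that NF-κB dimers are known to bind, in capitals. They lie at chr6:31575315-31575564 (TNF, plus strand), chr6:31572039-31572288 (LTA, plus strand) and chr6:31582425-31582674 (LTB, minus strand), and those of LTA and LTB partly overlap the gene bounds above, which include longer transcripts.
TNF promoter: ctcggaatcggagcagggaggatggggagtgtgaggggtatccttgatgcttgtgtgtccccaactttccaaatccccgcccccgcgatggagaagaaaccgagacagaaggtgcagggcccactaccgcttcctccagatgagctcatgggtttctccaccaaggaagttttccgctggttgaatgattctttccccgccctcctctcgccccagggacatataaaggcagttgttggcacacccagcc
LTA promoter: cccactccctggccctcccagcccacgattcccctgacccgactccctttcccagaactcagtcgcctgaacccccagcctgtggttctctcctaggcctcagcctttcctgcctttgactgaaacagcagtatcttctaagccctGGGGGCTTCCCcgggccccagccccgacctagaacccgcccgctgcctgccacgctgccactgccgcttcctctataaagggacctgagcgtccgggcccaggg
LTB promoter: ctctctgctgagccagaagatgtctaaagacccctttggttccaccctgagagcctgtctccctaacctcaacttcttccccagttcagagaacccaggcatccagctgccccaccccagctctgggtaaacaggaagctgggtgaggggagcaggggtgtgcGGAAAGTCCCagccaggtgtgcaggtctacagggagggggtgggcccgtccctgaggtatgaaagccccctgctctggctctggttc
LTA holds overlapping matches that begin 104 and 103 bases before the start, and LTB holds 1 that begins 87 bases before it. TNF holds none in this window, which says only that these letters are absent there. Searched on both strands, 10.0% of 35097 promoters of this length hold a match. The motif GGAAA, the core bound by NFAT factors, was found 3 times in the TNF window, 2 times in that of LTA and 1 time in that of LTB, where it overlaps the κB match, and 55.7% of promoters hold it. The motif TTCNNNGAA, bound by STAT factors, was found 1 time each in LTA and LTB (6.6% of promoters). A match is a description and was not tested for binding.

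TNF, a major inflammatory cytokine, rose with fludarabine in all lines and fell with both kinase inhibitors in JVM2 and EHEB. In MEC1 the DMSO libraries held 18.6, 14.9 and 13.8 CPM and the fludarabine libraries 35.9, 31.5 and 35.0 CPM. Every treated library was above every control, with a log2 fold change of 1.08 (SE 0.125, adjusted p = 3.72e-05). In EHEB the rise was from 49.7, 48.8 and 47.6 to 90.8, 89.8 and 87.3 CPM, again without overlap (0.89, SE 0.062, adjusted p = 9.27e-07). It was smaller in JVM2, from 24.9, 26.2 and 23.4 to 31.2, 32.5 and 38.7 CPM (0.47, SE 0.095, adjusted p = 0.00187). In these bulk samples, a change in the share of expressing cells and a change in RNA per cell cannot be told apart.

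Idelalisib lowered TNF in EHEB to 16.3, 18.5 and 17.5 CPM, far below all DMSO libraries (log2 fold change −1.49, SE 0.0636, adjusted p = 5.49e-08). With ibrutinib the EHEB libraries held 28.5, 29.5 and 31.5 CPM (−0.71, SE 0.0622, adjusted p = 2.94e-05). Thus ibrutinib-treated EHEB cells lay between the DMSO and idelalisib groups, and no group overlapped another. In JVM2 TNF was at 17.1, 18.7 and 18.9 CPM with ibrutinib (−0.45, SE 0.0956, adjusted p = 0.00461) and at 16.7, 15.1 and 17.3 CPM with idelalisib (−0.61, SE 0.0958, adjusted p = 0.000405). MEC1 gave no such fall. There the ibrutinib libraries held 20.7, 16.0 and 20.9 CPM and just missed the threshold in the upward direction (0.32, SE 0.124, adjusted p = 0.0502, from 0.0118 to 0.124 over the alternatives, and 0.0105 without library DMSO 1), and those with idelalisib held 15.4, 13.9 and 14.2 CPM (−0.06, adjusted p = 0.70). The line by drug interaction, which tests whether a drug's fold change differs among lines, was called for TNF with each drug (adjusted p = 0.00919 with fludarabine, 0.000284 with ibrutinib and 2.91e-06 with idelalisib).

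LTA moved in the same directions as TNF in most comparisons. With fludarabine it rose in MEC1 from 46.8, 46.3 and 42.7 to 58.3, 58.5 and 61.7 CPM, a log2 fold change of 0.36 (SE 0.076, adjusted p = 0.00247). In JVM2 it rose from 59.3, 71.2 and 66.5 to 82.3, 80.7 and 77.1 CPM (0.30, SE 0.0719, adjusted p = 0.00576). The largest of these rises was in EHEB, from 121.7, 103.2 and 104.6 to 243.6, 223.6 and 224.1 CPM (1.08, SE 0.0802, adjusted p = 1.42e-06). Treated and DMSO libraries did not overlap in any line, and with scaling by library size alone the first 2 values became 0.61 and 0.50.

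Idelalisib lowered LTA in EHEB to 49.0, 50.3 and 48.4 CPM (log2 fold change −1.17, SE 0.0808, adjusted p = 1.44e-06) and in JVM2 to 43.3, 40.0 and 41.3 CPM (−0.66, SE 0.0724, adjusted p = 3.00e-05). All of these libraries lay below their controls. In MEC1 the idelalisib libraries held 41.3, 35.5 and 36.8 CPM (−0.20, SE 0.0761, adjusted p = 0.0478). That call was lost without library DMSO 1 or 2, fludarabine 1, 2 or 3, ibrutinib 3 or idelalisib 2 or 3 (adjusted p 0.0543 to 0.138) and under 4 other alternatives, where the log2 fold change lay between −0.21 and −0.07. Ibrutinib raised LTA slightly in MEC1, to 56.4, 48.0 and 53.8 CPM (0.26, SE 0.0759, adjusted p = 0.014), and lowered it in EHEB, to 83.9, 82.6 and 97.4 CPM (−0.32, SE 0.0795, adjusted p = 0.0158). The first call was lost without library DMSO 3 or ibrutinib 1 (adjusted p 0.0613 and 0.069) or with no filter on low counts (0.0533). The second was lost without library DMSO 1 or ibrutinib 1 or 2 (0.0635 to 0.0697) or with only the 6 libraries compared (0.0627). In JVM2 the ibrutinib libraries overlapped the controls, at 63.1, 61.9 and 55.8 CPM (−0.14, adjusted p = 0.194). The interaction was called for LTA with each drug (adjusted p = 6.73e-05, 0.00666 and 2.59e-05).

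LTB, the membrane anchor of the lymphotoxin trimer, moved the other way from TNF and LTA in JVM2 and EHEB. Both kinase inhibitors raised it in every line. In EHEB the DMSO libraries held 2.12, 1.84 and 2.55 CPM, the ibrutinib libraries 4.66, 6.81 and 6.96 CPM and the idelalisib libraries 19.9, 18.9 and 18.2 CPM. The groups did not overlap, and the log2 fold changes were 1.495 (SE 0.18, adjusted p = 0.000214) and 3.12 (SE 0.186, adjusted p = 5.10e-07). The latter, an 8.68-fold rise, was the largest among the 9 genes other than IL6. In JVM2 LTB went from 2.20, 2.22 and 2.26 CPM with DMSO to 4.22, 4.60 and 4.12 CPM with ibrutinib (0.94, SE 0.155, adjusted p = 0.00111). With idelalisib the JVM2 libraries held 6.06, 6.40 and 6.35 CPM (1.49, SE 0.155, adjusted p = 2.23e-05). In MEC1, where the gene was already higher, DMSO libraries held 14.6, 12.2 and 21.3 CPM. Ibrutinib gave 68.5, 38.5 and 40.3 CPM there, with library 1 apart from the other two (1.66, SE 0.246, adjusted p = 0.000213). Idelalisib gave 53.4, 39.2 and 38.5 CPM, with library 1 above the other two (1.51, SE 0.246, adjusted p = 0.000299). Every treated library was above every control in all 6 comparisons.

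Fludarabine lowered LTB in JVM2 to 0.414, 0.512 and 0.685 CPM, which is 18, 23 and 29 counts, for a log2 fold change of −2.04 (SE 0.172, adjusted p = 3.02e-06). It lowered it in EHEB to 0.966, 1.24 and 0.941 CPM, from 27 to 41 counts (−1.04, SE 0.198, adjusted p = 0.0016). Both were without overlap. In MEC1 the fludarabine libraries held 18.7, 19.4 and 18.6 CPM, within the range of the controls (0.21, SE 0.244, adjusted p = 0.52). The interaction was called for LTB with fludarabine (adjusted p = 6.57e-05) and idelalisib (7.27e-05) and not with ibrutinib (0.246). Reads from the major histocompatibility complex can also align to its alternate haplotype sequences, and whether the authors' alignment held these is not given in the sources used here.

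**Figure D2:**
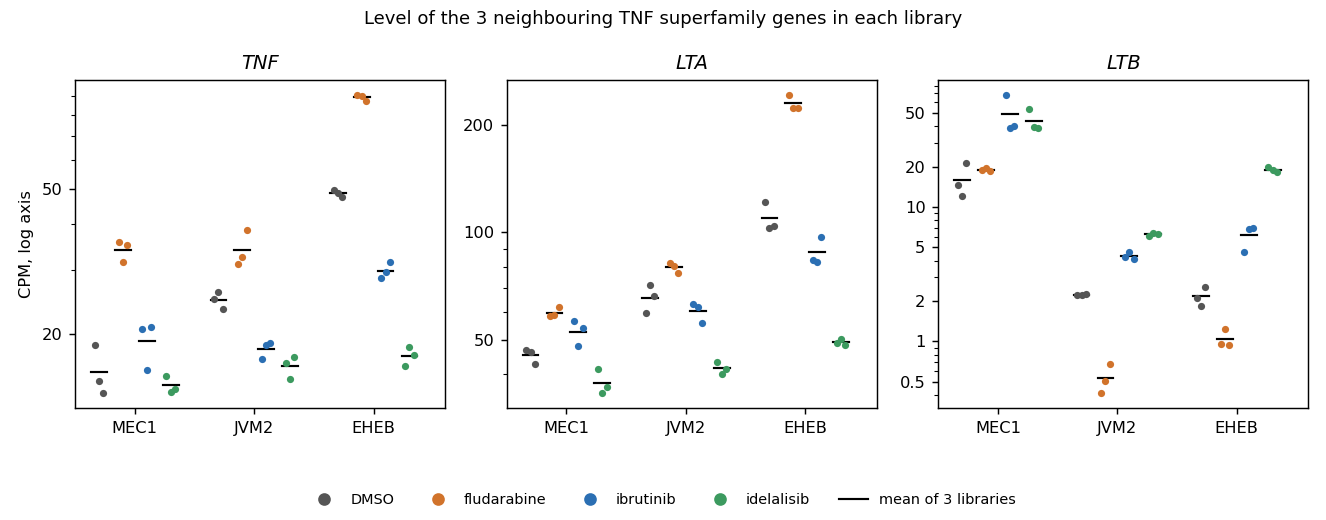
Points are the CPM of TNF, LTA and LTB in each library (log axis) by line and treatment, with a bar at the mean of 3 libraries. In EHEB, TNF and LTA step down from fludarabine through DMSO and ibrutinib to idelalisib, and LTB steps up along the same order.

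The ratio of LTB to LTA within a library, each per length of its transcript, does not depend on library scaling. In EHEB it was 0.0276 to 0.0387 with DMSO, 0.00629 to 0.00878 with fludarabine, 0.0880 to 0.131 with ibrutinib and 0.595 to 0.644 with idelalisib. The 4 groups did not overlap. In JVM2 the ranges were 0.0495 to 0.0589 with DMSO, 0.00798 to 0.0141 with fludarabine, 0.106 to 0.118 with ibrutinib and 0.222 to 0.254 with idelalisib, again without overlap. In MEC1 LTB passed LTA with the kinase inhibitors. The ratio was 0.417 to 0.790 with DMSO and 0.477 to 0.527 with fludarabine, and 1.19 to 1.93 with ibrutinib and 1.66 to 2.05 with idelalisib. It was not tested apart from the genes themselves.

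**Figure D3:**
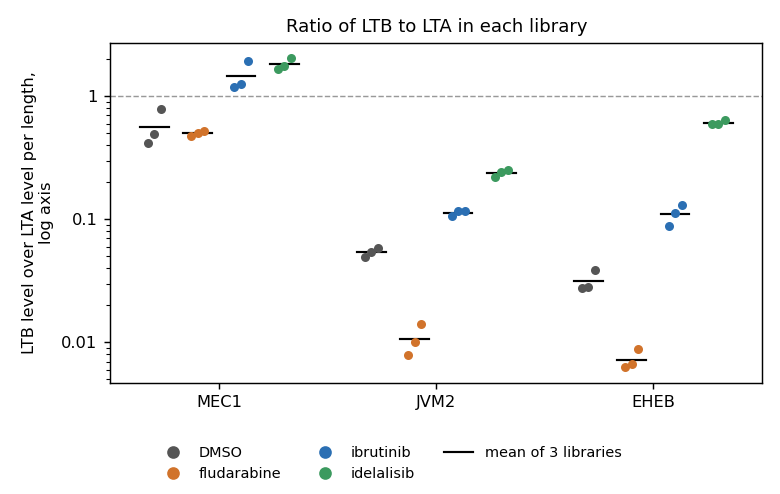
Each point is the ratio of LTB to LTA level per transcript length in a library (log axis, bars at the mean of 3 libraries, dashed line at equal levels). In every line the kinase inhibitor groups lie above DMSO, and MEC1 with ibrutinib or idelalisib lies above 1.

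The receptors of these ligands did not share a direction. TNFRSF1B, the TNF receptor of lymphoid cells, was called lower in 8 of 9 comparisons. In EHEB it went from 460.1 CPM with DMSO to 278.4 with fludarabine, 213.1 with ibrutinib and 230.4 with idelalisib, with log2 fold changes of −0.71, −1.11 and −1.01. The exception was fludarabine in JVM2 (−0.07, adjusted p = 0.356). TNFRSF1A, the other receptor of TNF and LTA, was called higher with fludarabine in JVM2, from 0.834 to 1.94 CPM (1.23, adjusted p = 0.00534). It was called lower with ibrutinib in MEC1 (−0.69, adjusted p = 0.0189) and with idelalisib in EHEB (−0.49, adjusted p = 0.028), and in none of the other 6 comparisons did it pass the test. LTBR, the receptor of the trimer that contains LTB, had too few counts to be tested in MEC1, and in EHEB it rose with fludarabine from 0.705 to 1.397 CPM (0.995, adjusted p = 0.0372). In JVM2 it held 9.74 CPM with DMSO and did not pass the test with any drug.

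TNFSF13B (BAFF) on chromosome 13 rose in MEC1 and JVM2 with fludarabine and fell in EHEB with idelalisib. In MEC1 the DMSO libraries held 8.51, 7.84 and 7.44 CPM, and those with fludarabine 16.4, 16.4 and 20.6 CPM, with a log2 fold change of 1.13 (SE 0.242, adjusted p = 0.00278). With idelalisib the MEC1 libraries held 14.7, 16.2 and 18.3 CPM (1.11, SE 0.241, adjusted p = 0.00229). The ibrutinib libraries of MEC1 were spread from 6.25 CPM in library 2 to 15.4 in library 3 and overlapped the controls (0.51, adjusted p = 0.10, and 0.78 with adjusted p = 0.00267 without library ibrutinib 2). In JVM2 the gene rose from 3.50, 3.01 and 3.58 CPM to 6.07, 9.19 and 6.71 with fludarabine (1.13, SE 0.212, adjusted p = 0.00113). Ibrutinib raised it there to 6.76, 8.37 and 8.27 CPM (1.201, SE 0.212, adjusted p = 0.00165), and idelalisib gave 4.59, 3.65 and 6.21 CPM (0.51, adjusted p = 0.0719, from 0.0375 to 0.126 over the alternatives). In EHEB, the line with most TNFSF13B, idelalisib gave 11.4, 14.9 and 8.13 CPM, all below the DMSO libraries at 18.4, 18.3 and 16.2 CPM (−0.62, SE 0.182, adjusted p = 0.0219). The fludarabine libraries of EHEB, at 14.2, 14.0 and 12.8 CPM, were also below the controls without passing the test (−0.35, adjusted p = 0.154, from 0.0225 to 0.335 over the alternatives). The idelalisib call was lost without library DMSO 1 or 2 or idelalisib 1 or 3 (−0.60 to −0.41, adjusted p 0.058 to 0.0685), with library size scaling (0.0528) and with only the 6 libraries compared (0.0612). The interaction was called with each drug (adjusted p = 1.57e-05 with fludarabine, 0.0441 with ibrutinib and 0.00044 with idelalisib). The call with ibrutinib was lost with library size scaling (0.0523), limma-voom (0.104), no filter (0.0539) and in 10 of the fits with a library left out (adjusted p 0.0524 to 0.108), those without library JVM2 DMSO 1, 2 or 3, EHEB DMSO 1, 2 or 3, JVM2 ibrutinib 2 or 3 or EHEB ibrutinib 2 or 3.

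The receptors of TNFSF13B were also described. TNFRSF13B, also called TACI, fell in 9 of 9 comparisons, from a log2 fold change of −1.94 with fludarabine in JVM2 (77.3 to 19.9 CPM, adjusted p = 2.09e-09) to −0.26 with ibrutinib in EHEB (66.9 to 56.1 CPM, adjusted p = 0.0409). TNFRSF13C, the BAFF receptor, fell in all lines with fludarabine, by −0.85 in MEC1, −1.45 in JVM2 and −1.60 in EHEB. With the kinase inhibitors it rose in MEC1 (0.61 and 0.55) and fell in JVM2 (−0.33 and −0.42), and in EHEB it fell with ibrutinib (−0.38) and rose with idelalisib (0.20). TNFRSF17, also called BCMA, fell with fludarabine in all lines, most in EHEB, from 68.1 to 11.9 CPM (−2.51, adjusted p = 3.29e-06).

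TGFB1 on chromosome 19, which encodes a broadly suppressive cytokine, was called lower in 8 of 9 comparisons. In MEC1 the DMSO libraries held 116.4, 110.3 and 113.8 CPM, and the gene fell to 77.4, 62.2 and 75.2 CPM with ibrutinib (log2 fold change −0.62, SE 0.0715, adjusted p = 3.14e-05). With idelalisib it fell to 66.1, 70.6 and 65.6 CPM (−0.69, SE 0.0716, adjusted p = 9.78e-06). Fludarabine gave 137.9, 137.6 and 125.0 CPM there, a rise of 0.20 (SE 0.0712, adjusted p = 0.038). That call was lost without library DMSO 1, 2 or 3, fludarabine 1 or 2, ibrutinib 1 or 3 or idelalisib 1, 2 or 3 (adjusted p 0.054 to 0.12) and with no filter on low counts (0.113), and the value was 0.45 with library size scaling. In JVM2 fludarabine and idelalisib lowered TGFB1 from 238.8 ± 5.74 CPM (SD, n = 3) to 138.9 ± 11.2 and 137.8 ± 3.11, with log2 fold changes of −0.77 (SE 0.0592, adjusted p = 1.41e-06) and −0.80 (SE 0.0592, adjusted p = 1.74e-06). Ibrutinib gave 202.6 ± 12.7 CPM (−0.25, SE 0.0588, adjusted p = 0.0088, and −0.20 with adjusted p = 0.0529 without library ibrutinib 2). In EHEB the DMSO level of 220.9 ± 0.947 CPM fell to 164.2 ± 15.8 with ibrutinib (−0.43, SE 0.0728, adjusted p = 0.00195) and to 151.6 ± 5.90 with idelalisib (−0.55, SE 0.0729, adjusted p = 0.000165). With fludarabine it was 189.8 ± 14.4 CPM (−0.21, SE 0.0727, adjusted p = 0.0441). That call was lost without library DMSO 1, 2 or 3, fludarabine 2 or 3, ibrutinib 1 or idelalisib 2 (adjusted p 0.0515 to 0.148), with library size scaling (−0.10, 0.202) and with a stricter filter (0.0558). In each of these 9 comparisons the treated libraries did not overlap the controls. TMEM91 overlaps 44.4% of the TGFB1 transcript on the opposite strand, with a median of 74 counts per library.

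Genes that hold or release TGFB1 were on the list of partner and processing genes. NRROS, which tethers latent TGFB1 on myeloid cells, fell in 9 of 9 comparisons, most with idelalisib, by −1.22 in MEC1, −1.59 in JVM2 and −1.58 in EHEB. ITGB8, a subunit of an integrin that frees TGFB1, was called higher in 7 of 9, with 111.2 CPM with DMSO and 181.8 with fludarabine in JVM2 (0.72, adjusted p = 1.50e-06). Of 16 partner and processing genes, 14 to 16 were tested in a line, 2 to 7 were called higher and 2 to 4 lower in each comparison with DMSO, where 8.5% to 27.6% of all genes were higher and 11.2% to 27.4% lower. The list also holds SPPL2A, a protease that cuts the membrane stub of TNF, which was called higher in 7 of 9 comparisons, by a log2 fold change of 0.205 to 0.686.

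IL32 on chromosome 16, a cytokine known to induce TNF in other cells, fell in 8 of 9 comparisons. In MEC1 the DMSO libraries held 161.8 ± 19.3 CPM (SD, n = 3), ibrutinib left 71.1, 66.6 and 70.5 CPM and idelalisib 64.7, 65.6 and 68.2 CPM. The log2 fold changes were −1.18 (SE 0.0794, adjusted p = 7.06e-07) and −1.23 (SE 0.0795, adjusted p = 3.00e-07), without overlap. The fludarabine libraries, at 121.1, 125.4 and 114.0 CPM, lay between (−0.46, SE 0.0785, adjusted p = 0.000634, and −0.21 with adjusted p = 0.0438 with library size scaling). In JVM2 IL32 went from 42.4 ± 2.35 CPM (SD, n = 3) to 32.5 ± 3.11 with fludarabine (−0.37, adjusted p = 0.0219), 33.6 ± 3.09 with ibrutinib (−0.35, adjusted p = 0.0469) and 28.3 ± 4.36 with idelalisib (−0.59, adjusted p = 0.002). The fludarabine call was lost without library DMSO 1 or fludarabine 1 or 2 (adjusted p 0.0637 to 0.0781), with library size scaling (−0.17, 0.283) and in a joint fit of all lines (0.0566). The ibrutinib call was lost without library DMSO 1, 2 or 3, fludarabine 1, 2 or 3, ibrutinib 1, 2 or 3 or idelalisib 3 (adjusted p 0.0529 to 0.194), with library size scaling (0.139), with no filter (0.0542) and in the joint fit (0.146). In EHEB the libraries of a group were spread, with 170.2, 243.7 and 180.6 CPM with DMSO and 146.7, 158.4 and 217.1 with fludarabine (−0.18, adjusted p = 0.555). Ibrutinib gave 104.5, 98.9 and 127.5 CPM (−0.85, SE 0.211, adjusted p = 0.0167) and idelalisib 107.0, 158.9 and 97.2 CPM (−0.72, SE 0.211, adjusted p = 0.0223), all below the controls. The ibrutinib call was lost without library DMSO 2 or ibrutinib 1 or 2 (−0.81 to −0.66, adjusted p 0.0597 to 0.0733). The idelalisib call was lost without library DMSO 2 or idelalisib 1 or 3 (−0.63 to −0.53, 0.0844 to 0.103).

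IL16 on chromosome 15, whose product attracts CD4-bearing cells, fell with fludarabine in all lines and did not pass the test with either kinase inhibitor in any line. In EHEB it went from 51.0, 53.6 and 48.8 CPM to 28.4, 33.8 and 22.6 CPM with fludarabine, a log2 fold change of −0.84 (SE 0.159, adjusted p = 0.00152). In JVM2 it went from 46.1, 50.3 and 49.0 to 39.2, 41.1 and 37.7 CPM (−0.29, SE 0.0625, adjusted p = 0.00277). The groups did not overlap in either line. With library size scaling the JVM2 value was −0.09 (adjusted p = 0.208), and in the joint fit the adjusted p was 0.165. In MEC1 the DMSO libraries held 147.1, 139.5 and 95.3 CPM and the fludarabine libraries 67.0, 65.6 and 98.9 CPM (−0.75, SE 0.21, adjusted p = 0.013). Here library 3 with fludarabine lay above library 3 with DMSO, and the call was lost without library DMSO 1 or fludarabine 1 or 2 (−0.66 to −0.64, adjusted p 0.0505 to 0.0527) and with library size scaling (−0.50, 0.068). With the kinase inhibitors the log2 fold changes lay between −0.03 and 0.30, with adjusted p from 0.161 to 0.978. Of these, idelalisib in JVM2 (0.12) passed with library size scaling (0.22, adjusted p = 0.01), with a stricter filter (0.0376) and without library idelalisib 3 (0.036). STARD5 overlaps 52.0% of the IL16 transcript on the opposite strand. Its median of 94 counts per library was small beside the 795 to 7507 counts of IL16, and whether reads were counted by strand is not given in the sources used here.

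**Figure D4:**
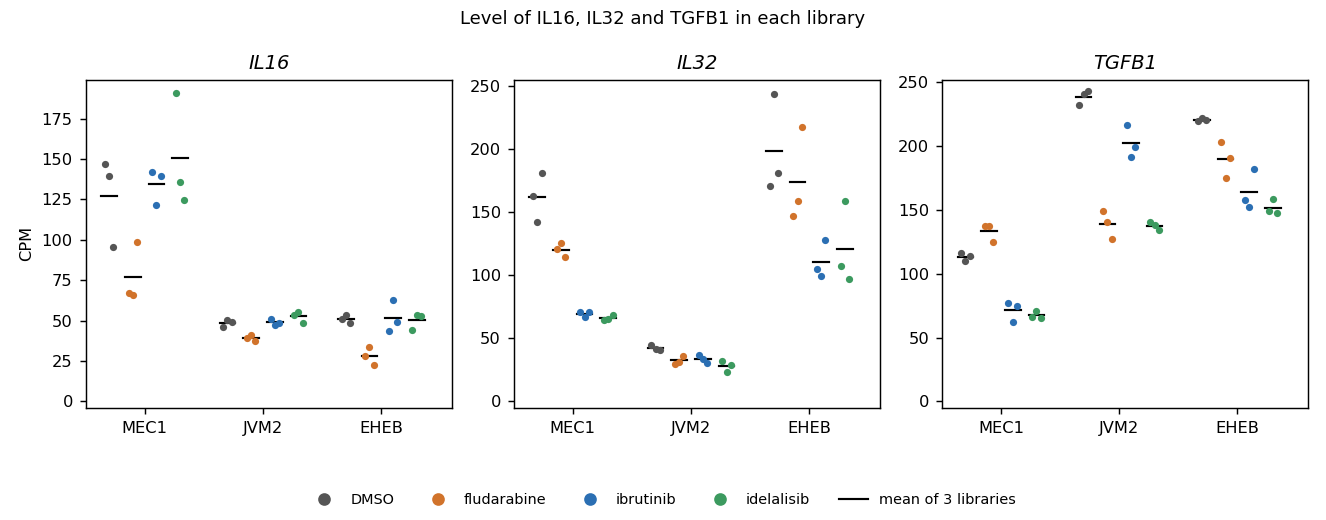
Points are the CPM of IL16, IL32 and TGFB1 in each library by line and treatment, with bars at the mean of 3 libraries and axes from 0. IL16 has a lower mean with fludarabine than with DMSO in each line, with overlapping libraries in MEC1. IL32 and TGFB1 have lower means with both kinase inhibitors and, except for TGFB1 in MEC1, also with fludarabine.

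IL10 on chromosome 1, an anti-inflammatory cytokine made by regulatory B cells, rose with all 3 drugs in MEC1. Its DMSO libraries held 13, 13.2 and 12 CPM there. Fludarabine gave 20.98, 18.98 and 18.7 CPM, ibrutinib 21.8, 21.7 and 20.9 CPM, and idelalisib 24.8, 21.3 and 22.1 CPM. Every treated library was above every control, and the log2 fold changes were 0.59 (SE 0.0858, adjusted p = 0.000222), 0.80 (SE 0.0856, adjusted p = 1.91e-05) and 0.90 (SE 0.0858, adjusted p = 5.22e-06). In JVM2 it stood at 13 to 52 counts per library and in EHEB at 3.36 to 4.81 CPM, and no comparison there passed the test (adjusted p 0.374 to 0.941). The interaction was called with ibrutinib (adjusted p = 0.00215) and not with fludarabine (0.136, but 0.0469 with DESeq2 and 0.0495 without JVM2 library DMSO 2) or idelalisib (0.281). The test does not say which line differs. IL10RA, a chain of its receptor, was called higher in 5 of 9 comparisons, most with idelalisib in JVM2, from 20.8 to 46.7 CPM (1.16, adjusted p = 6.48e-06). IL19 overlaps 26.8% of the IL10 transcript on the opposite strand, with a median of 5 counts per library.

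EBI3 on chromosome 19 encodes a subunit that is known to pair with IL27 in the cytokine of that name and with IL12A in IL35. It rose with all 3 drugs in MEC1, where DMSO libraries held 58.7, 57.5 and 52.2 CPM. Fludarabine gave 84.2, 85.9 and 76.7 CPM (log2 fold change 0.52, SE 0.0774, adjusted p = 0.000248), ibrutinib 127.3, 104.4 and 127.0 CPM (1.13, SE 0.078, adjusted p = 8.07e-07) and idelalisib 99.3, 90.7 and 95.6 CPM (0.82, SE 0.0776, adjusted p = 4.60e-06). None of the treated groups overlapped the controls. In JVM2, the line with most EBI3, the level of 267.9 ± 9.97 CPM (SD, n = 3) fell to 193.5 ± 5.91 with idelalisib (−0.47, SE 0.0568, adjusted p = 5.89e-05) and to 227.6 ± 8.25 with fludarabine (−0.22, SE 0.0567, adjusted p = 0.00727). With library size scaling the latter was −0.03 (adjusted p = 0.673). In EHEB fludarabine raised it from 207.2 ± 3.45 to 263.7 ± 19.7 CPM (0.36, SE 0.0731, adjusted p = 0.00246). With idelalisib all EHEB libraries were above the controls, at 236.7 ± 7.49 CPM, but the difference did not pass the test (0.18, adjusted p = 0.0771, from 0.00253 to 0.133 over the alternatives). The interaction was called with each drug (adjusted p = 1.11e-05, 1.64e-06 and 1.57e-08).

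The partners IL27 and IL12A were scarce beside EBI3. IL27 had too few counts to be tested in MEC1, and rose with all drugs in JVM2, from 0.513 CPM to 1.11, 1.49 and 1.12 CPM (log2 fold changes 1.12, 1.53 and 1.12). In EHEB it rose with fludarabine, from 0.859 to 2.58 CPM (1.60, adjusted p = 0.000764). IL12A was called changed with fludarabine in MEC1, from 1.198 to 2.742 CPM (1.16, adjusted p = 0.00246), and in none of the other 8 comparisons.

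IL6 on chromosome 7, a growth and inflammation signal, was at or near 0 with DMSO in all lines and appeared with fludarabine in JVM2 and EHEB. It had no counts in the 12 MEC1 libraries, which with a floor of 8 counts over a group (about 3 read pairs) allows at most 0.0543 to 0.0762 CPM per group. In JVM2 the DMSO libraries held 4, 0 and 0 counts. The fludarabine libraries held 56, 101 and 106 counts (1.29, 2.25 and 2.51 CPM), the idelalisib libraries 29, 43 and 52 counts and the ibrutinib libraries 22, 11 and 3 counts. Per library size, the summed counts were 58.8 times those with DMSO with fludarabine and 28.7 times with idelalisib. The 95% intervals, 11.9 to 371 and 5.57 to 181, cover counting error only. They were computed on counts divided by 8/3 and rounded to whole read pairs (99 with fludarabine, 46 with idelalisib, 2 with DMSO). They are therefore not centred on the ratios of summed counts, and they depend on how the 4 DMSO counts were rounded. The adjusted p was 0.00033 with fludarabine and 0.00163 with idelalisib, and no library overlapped the controls. With ibrutinib the ratio of summed counts was 8.59 (interval 1.53 to 60.6, from 14 read pairs) and the groups overlapped. Its adjusted p of 0.0448 rose above the threshold with limma-voom (0.136), no filter (0.0617), the joint fit (0.0591), counts divided by 8/3 (0.0877), or without library DMSO 2 or 3, fludarabine 1, 2 or 3, ibrutinib 1 or 2 or idelalisib 1, 2 or 3 (0.0516 to 0.147). Library 1 holds all 4 counts of the DMSO group, and without it the adjusted p was 0.00778 with ibrutinib, 0.000214 with fludarabine and 0.000673 with idelalisib.

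In EHEB the DMSO libraries had no IL6 counts and the fludarabine libraries 15, 32 and 23, at least 11.1-fold higher than the floor of the DMSO group (adjusted p = 0.00323). Ibrutinib gave 5, 0 and 3 counts (adjusted p = 0.0964), which is at the floor, and idelalisib gave none. The promoter of IL6 is shown because the gene went from near silence to expression. It lies at chr7:22726950-22727199 on the plus strand (GRCh38.p14), and the κB consensus, in capitals, begins 73 bases before the start.
IL6 promoter: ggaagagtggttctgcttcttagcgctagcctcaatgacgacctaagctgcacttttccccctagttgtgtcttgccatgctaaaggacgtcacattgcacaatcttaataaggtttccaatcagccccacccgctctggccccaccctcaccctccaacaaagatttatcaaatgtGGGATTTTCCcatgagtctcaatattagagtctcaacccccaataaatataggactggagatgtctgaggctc
Matches were also present before EBI3 (214 bases) and TGFB1 (154 bases) and absent from the windows of IL10, IL16, IL32 and TNFSF13B. The windows of IL16 and IL32 lie before RefSeq starts at 81199476 and 3065784. Their reference transcripts start elsewhere, at 81196879 and 3065640, and the bases before those starts were not searched as windows of their own. GGAAA was found 3 times in the IL6 window. IL6R, the ligand-binding receptor, passed no test, with 0.147, 2.18 and 1.89 CPM in DMSO-treated MEC1, JVM2 and EHEB, while the shared chain IL6ST was at 236.2, 424.8 and 272.9 CPM. STEAP1B and IL6-AS1 overlap 22.4% and 23.0% of the IL6 transcript on the opposite strand, and STEAP1B reached 88 counts at most in a library, with a median of 0.

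**Figure D5:**
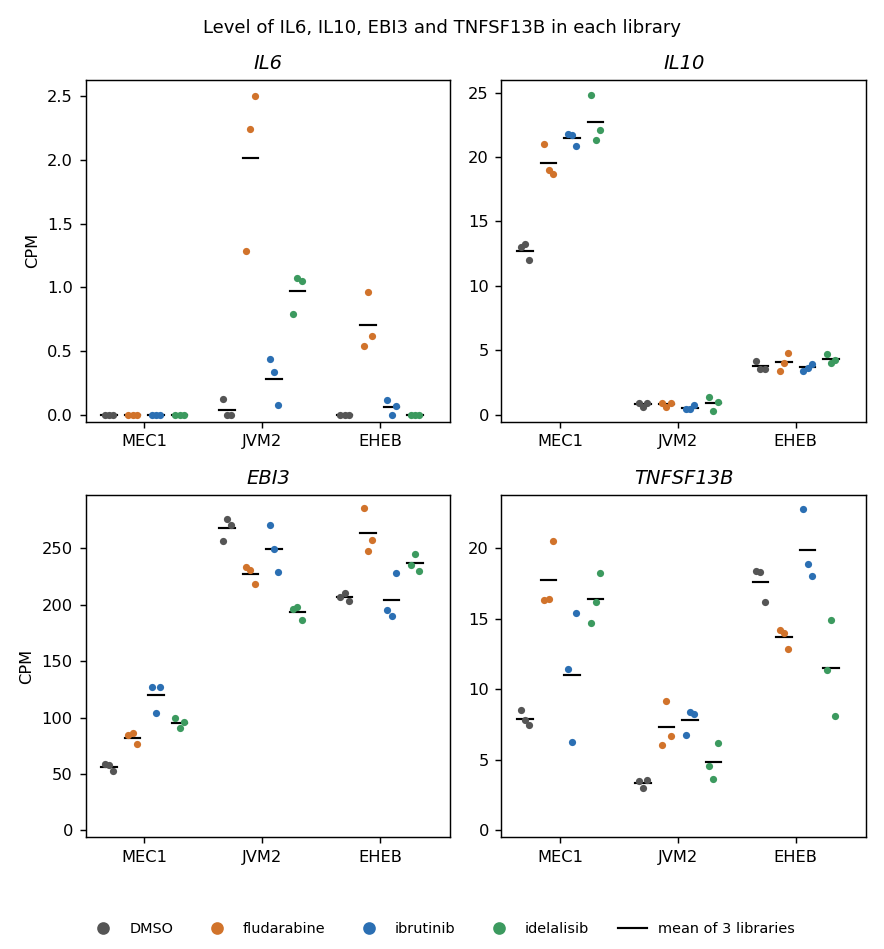
Points are the CPM of IL6, IL10, EBI3 and TNFSF13B in each library by line and treatment, with bars at the mean of 3 libraries and axes from 0. IL6 is seen in JVM2 and in fludarabine-treated EHEB cells, and IL10 is highest in drug-treated MEC1 cells.

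The 2 kinase inhibitors, whose libraries lie in the same series, were also compared directly. The fit took its filter, scaling and estimate of spread from all 12 libraries of the line, so p values also depend on the DMSO and fludarabine libraries. Idelalisib and ibrutinib differed for 2 of 9 genes in MEC1 (15.4% of all genes tested), 5 of 10 in JVM2 (18.7%) and 4 of 10 in EHEB (15.9%). LTA was lower with idelalisib in all lines, by a log2 difference of −0.46 in MEC1 (SE 0.0761, adjusted p = 0.0033), −0.53 in JVM2 (0.0723, adjusted p = 0.000573) and −0.84 in EHEB (0.0804, adjusted p = 5.57e-05). TNF was lower in EHEB (−0.78, SE 0.063, adjusted p = 1.96e-05) and did not pass the test in MEC1 (−0.38, adjusted p = 0.0601, from 0.00532 to 0.125 over the alternatives) or JVM2 (−0.15, adjusted p = 0.315). LTB was higher with idelalisib in EHEB (1.62, SE 0.174, adjusted p = 0.000113) and in JVM2 (0.55, SE 0.15, adjusted p = 0.0283). The JVM2 call was lost without library ibrutinib 1, 2 or 3 or idelalisib 1, 2 or 3 (adjusted p 0.0527 to 0.092) and in the joint fit (0.0741). TGFB1 was lower in JVM2 (−0.55, SE 0.059, adjusted p = 0.000112).

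EBI3 was lower with idelalisib than with ibrutinib in JVM2 (−0.36, SE 0.0568, adjusted p = 0.00139) and in MEC1 (−0.31, SE 0.0769, adjusted p = 0.0202). The MEC1 call was lost without library ibrutinib 1 or 3 or idelalisib 2 (adjusted p 0.0526 to 0.0794), with no filter (0.0693) and with only the 6 libraries compared (0.0763), and the value was −0.48 with library size scaling. TNFSF13B was lower with idelalisib in EHEB (−0.79, SE 0.182, adjusted p = 0.0124) and JVM2 (−0.69, SE 0.208, adjusted p = 0.0421). The first call was lost without library ibrutinib 1 (−0.69, 0.0522) and with only the 6 libraries (0.0633). The second was lost without library DMSO 1, 2 or 3, ibrutinib 2 or 3 or idelalisib 1 or 2 (−0.69 to −0.53, 0.0528 to 0.124) and with library size scaling (0.0517), no filter (0.0641) or only the 6 libraries (0.071). The agents were given at different doses, 5 and 10 µM.

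Other cytokines and TNF family ligands were on a list of 34 genes, of which 20 to 25 had counts enough in a line. Fludarabine raised 8 of 21 tested in MEC1, 8 of 20 in JVM2 and 7 of 25 in EHEB, where 21.2%, 23.9% and 18.4% of all genes were higher. It lowered 2, 2 and 4 in the same order (22.7%, 23.3% and 19.2% of all genes). Their median log2 fold changes were 0.64, 0.26 and 0.46, beside 0.06, 0.06 and 0.02 over all genes. IFNG, the gene of interferon gamma, rose most in EHEB by level, from 14.4 to 87.9 CPM (2.62, adjusted p = 1.85e-07), and by fold in JVM2, from 0.676 to 27.9 CPM (5.36, adjusted p = 9.55e-08). With idelalisib IFNG fell in EHEB to 2.63 CPM (−2.47, adjusted p = 7.29e-07) and with ibrutinib to 3.11 CPM (−2.22, adjusted p = 5.73e-06). Such falls were not general, because over the 9 comparisons with DMSO IFNG was called higher in 4 and lower in 3. Not all of the rises were therefore with fludarabine. IL1B rose with fludarabine in all lines, by 1.89, 1.71 and 2.17. Idelalisib raised 12 and lowered 1 of 21 in MEC1 (27.6% and 27.4% of all genes). It raised 1 and lowered 5 of 20 in JVM2 (21.6% and 22.6%), and raised 1 and lowered 9 of 25 in EHEB (15.1% and 18.2%). Ibrutinib raised 7 and lowered 2 in MEC1 (23.7% and 23.9%), raised 0 and lowered 6 in JVM2 (14.5% and 15%), and raised 1 and lowered 7 in EHEB (8.5% and 11.2%). Whether the list differed between lines was not tested.

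Genes that these cytokines are known to induce were on a list of 16, of which 14 or 15 were tested in a line. Fludarabine raised 7 of 15 tested in MEC1, 9 of 14 in JVM2 and 11 of 15 in EHEB, beside 21.2%, 23.9% and 18.4% of all genes. It lowered 1, 1 and 2 in the same order (22.7%, 23.3% and 19.2% of all genes), with medians of 0.33, 0.32 and 0.52 beside 0.06, 0.06 and 0.02 over all genes. In MEC1 ibrutinib raised 4 and lowered 8 of 15 (23.7% and 23.9% of all genes) and idelalisib raised 2 and lowered 9 (27.6% and 27.4%), with medians of −0.50 and −0.96 beside 0.06 and 0.08. In JVM2 ibrutinib raised 4 and lowered 3 of 14 (14.5% and 15%) and idelalisib raised 4 and lowered 4 (21.6% and 22.6%), with medians of 0.00 and −0.05. In EHEB each raised 7 and lowered 3 of 15 (8.5% and 11.2% of all genes with ibrutinib, 15.1% and 18.2% with idelalisib), with medians of 0.20 and 0.19. TRAF1, an adaptor at TNF receptors, rose in 9 of 9 comparisons, by 0.33 to 0.97. JUNB and SOCS3, which respond to IL6-type signals, rose with fludarabine in each line and JUNB fell with each kinase inhibitor in each line. SOCS3 went from 26.6 to 47.6 CPM with fludarabine and to 16.1 CPM with idelalisib in JVM2. TGFBI, named for its induction by TGFB1, had too few counts to be tested in MEC1. It rose with fludarabine in JVM2, from 0.90 to 6.11 CPM (2.76, adjusted p = 0.00185), and in EHEB, from 4.05 to 23.4 CPM (2.54, adjusted p = 2.64e-06). It fell with both kinase inhibitors, to 0.0609 CPM with ibrutinib and 0.0975 CPM with idelalisib in JVM2 (adjusted p = 0.00302 and 0.00378) and to 1.87 and 1.32 CPM in EHEB (−1.11 and −1.62, adjusted p = 0.00353 and 0.000175). The JVM2 levels with these drugs were near the floor of 8 counts over a group (0.0653 CPM with ibrutinib and 0.0634 CPM with idelalisib). Of 18 receptors, 17 or 18 were tested, 2 to 7 were called higher and 4 to 9 lower in each comparison with DMSO, where 8.5% to 27.6% of all genes were higher and 11.2% to 27.4% lower.

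Whether a drug's effect differed among the lines was tested for each gene. The interaction was called for 6 of 10 genes with fludarabine (39.1% of all genes tested), 7 of 9 with ibrutinib (33.6%) and 6 of 10 with idelalisib (45.7%). EBI3, TNF, LTA, TNFSF13B and TGFB1 were called with all 3 drugs and IL16 with none (adjusted p 0.145, 0.919 and 0.547), although IL16 with fludarabine passed without MEC1 library fludarabine 3 (0.0465). IL32 with idelalisib (0.0601) passed in the joint fit (0.0226), with library size scaling (0.0216), with DESeq2 (0.0356), and without library MEC1 DMSO 2, JVM2 idelalisib 2, EHEB DMSO 2 or EHEB idelalisib 2 or 3 (0.0214 to 0.0476). IL6, which was not called with fludarabine (0.588) or idelalisib (1), passed with limma-voom (0.00363 and 0.000769). For TGFB1 the call with ibrutinib (adjusted p = 0.0229) was lost without JVM2 library DMSO 1 or ibrutinib 1 (0.0515 and 0.0589) and with no filter (0.0564), and that with idelalisib (0.0191) without EHEB library idelalisib 2 (0.07) and in the joint fit (0.11).

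As a description, group means of log2 CPM were centred on each line and correlated over the 12 groups, which share their library series and, within a line, their DMSO group. TNF and LTA had a Pearson r of 0.94, LTB had −0.86 with TNF and −0.85 with LTA, and IL32 had 0.85 with TGFB1. Among 11990 genes, TNF was the gene most like LTA (r = 0.945), with ABHD5 next (0.944). Most like TNF were MKLN1-AS (0.948) and AGK (0.946), and most like LTB were RALGPS1 (0.963) and ARHGAP10 (0.962). The genes most like the others were HMGB3 (0.975) and CDKN2D (0.971) for IL32, ETV4 (0.972) and INCENP (0.972) for TGFB1, E2F5 (0.984) and ZMYM2 (0.972) for IL16, STAG3L1 (0.909) and URB1-AS1 (0.907) for IL10, EXOSC6 (0.871) and RBPMS (0.843) for EBI3, and EXTL2 (0.895) and LINC00649 (0.853) for TNFSF13B.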

How the data were processed

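RNA depleted of ribosomal RNA was sequenced from 36 libraries of 3 established human lines. Per the labels and the study's methods, the authors trimmed reads with Trimmomatic, aligned them to GRCh38 with HISAT2 2.1, estimated transcripts with StringTie 1.3.4 and used edgeR 3.22.5. The deposited values are expected counts (estimates) per gene symbol, made by the authors with these tools and given as whole numbers and not normalised. Low values gathered at multiples of about 2.67 counts, so 1 read pair may count more than once, and dividing by 8/3 was tried after the data were seen. A row with no symbol (0.00384% of counts) was left out. Each library counted once. Deposited values of libraries of a group differed by more than sampling noise in all 36 pairs (chi-square per degree of freedom 27.2 to 53.6). Read pairs counted more than once would also raise this value, so it does not show that the libraries came from separate cultures.

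Genes were kept with edgeR's filter (minimum count 10, total 15), scaled by TMM and tested with edgeR 4.0.16 in R 4.3.3, 1 fit per line. Printed CPM are on a scale set over all libraries, which differs from the fits' own scales by at most 0.062 (log2). Alternatives were library size scaling, DESeq2 1.42.0, limma-voom (limma 3.58.1), no filter, a stricter filter (mean CPM of 5), only the libraries compared, a joint fit of all lines and each library left out. The fit was tested on simulated data with changes of a single size, larger than many of those called here, so small changes were not covered. Intervals and floors cover counting error only. Coordinates and transcripts are from GENCODE 44 and promoters from RefSeq.

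The 10 genes and the lists of receptors, partners, other ligands and targets were chosen with earlier results of these data known. From each list at most 4 genes per direction were named, those called the same way in most of the 9 comparisons, and receptors were also named by the ligand they bind. IL12A, as a partner of EBI3, and the marker genes PDGFRB, COL3A1, COL1A1 and CSF1R were named after their values were seen. 1 B-cell marker gene is not reported here, and the markers of other cell types that are not named are covered by the summed levels of their lists.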

Additional observations from a re-analysis of the deposited data

Results flagged for a closer look

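A line by drug interaction, the edgeR test of whether a drug's log2 fold change differs among MEC1, JVM2 and EHEB, picked out 19 results. With fludarabine these were EBI3 (adjusted p = 1.11e-05), TNF (0.00919), LTA (6.73e-05), LTB (6.57e-05), TNFSF13B (1.57e-05) and TGFB1 (9.44e-07). With ibrutinib they were IL10 (adjusted p = 0.00215), IL32 (0.00608), EBI3 (1.64e-06), TNF (0.000284), LTA (0.00666), TNFSF13B (0.0441) and TGFB1 (0.0229). With idelalisib they were EBI3 (adjusted p = 1.57e-08), TNF (2.91e-06), LTA (2.59e-05), LTB (7.27e-05), TNFSF13B (0.00044) and TGFB1 (0.0191). In the order MEC1, JVM2, EHEB, the log2 fold changes of EBI3 with idelalisib were 0.82, −0.47 and 0.18, and TNF had −0.06, −0.61 and −1.49. TGFB1 with fludarabine had 0.20, −0.77 and −0.21, and LTB had 0.21, −2.04 and −1.04. In these differences the line cannot be told apart from the time of exposure.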

How the results depend on the processing

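Of 1289 values for single genes under other settings 1209 kept direction and call, 36 lost the call, 31 gained one and 13 changed sign. Of 2157 values without 1 library these were 2014, 97, 22 and 24. Every value that changed sign had not been called. With library size scaling these were IL10 and EBI3 with ibrutinib in EHEB (0.06 and 0.08), IL16 with idelalisib in EHEB (0.07), IL10 for idelalisib against ibrutinib in MEC1 (−0.07) and LTB between DMSO-treated EHEB and JVM2 (0.00). With a stricter filter they were TNF with idelalisib in MEC1 (0.06) and, in EHEB, EBI3 with ibrutinib (0.00) and IL16 with idelalisib (0.01). With limma-voom they were IL10 with idelalisib in JVM2 (−0.02), IL16 with ibrutinib in EHEB (−0.02) and IL6 with idelalisib in EHEB (0.29), and IL16 with ibrutinib in JVM2 was −0.00 with DESeq2 and with no filter.

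Without 1 library each, log2 values ranged as follows in MEC1: IL16 with ibrutinib −0.05 to 0.23, TNF with idelalisib −0.15 to 0.07, and for idelalisib against ibrutinib IL16 −0.05 to 0.28 and LTB −0.34 to 0.13. In JVM2 IL10 ranged from −0.14 to 0.22 with fludarabine and from −0.25 to 0.59 with idelalisib, and IL16 from −0.03 to 0.04 with ibrutinib. In EHEB IL10 ranged from −0.02 to 0.24 with fludarabine and −0.08 to 0.05 with ibrutinib, IL16 from −0.14 to 0.12 with ibrutinib and −0.08 to 0.06 with idelalisib, and EBI3 from −0.10 to 0.04 with ibrutinib. For idelalisib against ibrutinib in EHEB IL16 ranged from −0.16 to 0.12 and IL32 from −0.12 to 0.27, and LTB between DMSO-treated EHEB and JVM2 from −0.14 to 0.08.

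The number of the genes called for idelalisib against ibrutinib in MEC1 was 1 with no filter or with only the libraries compared, in place of 2, and 1 to 3 without 1 library (1 without library ibrutinib 1 or idelalisib 2). It was 3 to 5 with ibrutinib in JVM2 (6 with all libraries), 3 to 5 with ibrutinib in EHEB (3 without library ibrutinib 1 or 2) and 3 to 5 for idelalisib against ibrutinib in JVM2 (3 without library ibrutinib 2 or 3 or idelalisib 1 or 2). The causes were not tested. IL6, at 0 to 4 counts per DMSO library, is limited by depth. No paired analysis was possible because the groups share no replicate numbers.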
